A study of Drosophila melanogaster with 9 samples.

Results

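The genes described here make, carry or store the pigments of the *Drosophila* eye. The set was chosen by name and holds 10 genes: the transporter genes *w* (*white*), *st* (*scarlet*) and *bw* (*brown*), and the enzyme genes *v* (*vermilion*), *cn* (*cinnabar*), *Pu* (*Punch*), *pr* (*purple*), *se* (*sepia*), *ry* (*rosy*) and *Hn* (*Henna*). A gene entered where its symbol or a synonym stood in the platform's probe-to-gene table. Of the 10 genes, 7 were found, on 8 of the 18769 probe sets left after the array controls were set aside, with *bw* on a pair of probe sets. *w*, *v* and *Hn* are not listed in that table and were not analysed here. A level of *white* itself, and the genes whose pattern is most like it, can therefore not be given. Sequences of these genes were not used here.

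RNA from heads of untreated adult males, 2 to 3 days old, was measured on 9 Affymetrix Drosophila 2.0 arrays, 3 for each genotype. *BxJ* is a gain-of-function allele of *dLmo*, which encodes a LIM-domain-only transcriptional regulator, and *EP1306* is a loss-of-function allele made by the insertion of an EP transposon. The control, *w;iso*, called the control from here on, is a *w1118* stock isogenic for chromosomes II and III, and both mutant lines had been outcrossed to it for several generations. Per the labels, 200 flies were taken for a sample, flies of 3 bottles were combined into 1 pool of 600, and the RNA was divided into triplicates, whereas the methods speak of 3 separate lots of heads. The p-values therefore measure the spread between arrays, which may be technical. The *dLmo* gene, listed as *Bx*, is not in the table of named genes and was not analysed here, so the labels were not checked on it.

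As background, the *w1118* allele lacks the start of *white*, and EP transposons carry a mini-*white* gene as their visible marker. The eye colours of these flies, and the *white* allele on the *BxJ* chromosome, are not given in the sources used here. All 7 measured genes lie on the autosomes: *pr* on 2L, *bw*, *cn* and *Pu* on 2R, *st* and *se* on 3L, and *ry* on 3R. *w* and *v* are X-linked and *Hn* is on 3L.

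The fly eye holds 2 kinds of pigment, brown ommochromes made from tryptophan and red drosopterins made from GTP through pteridines. Both are built in pigment granules, organelles related to lysosomes, and the ABC half-transporter White pairs with Scarlet to move ommochrome precursors or with Brown to move pteridine precursors across the granule membrane. Most of the enzymes act in the pigment cells of the retina, although xanthine dehydrogenase, the product of *ry*, is made in the fat body and Malpighian tubules and acts at a distance. The pteridine branch also yields tetrahydrobiopterin, the cofactor with which phenylalanine, tyrosine and tryptophan are hydroxylated, so that its first enzymes serve neurons as well.

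None of the 8 probe sets passed the test in any comparison of the genotypes. With limma and Benjamini-Hochberg adjustment over all 18769 probe sets, 0 of 8 had an adjusted p under the threshold of 0.05 in *BxJ* minus control, where 0.288% of all probe sets did. The count was also 0 of 8 in *EP1306* minus control, where 1.14% of all probe sets were called, in *EP1306* minus *BxJ*, where 1.23% were called, and in the F-test over the 3 genotypes, where 1.49% were called. At an unadjusted p under 0.05 the 3 comparisons held 0, 2 and 2 of the 8 probe sets, against 12.1%, 9.8% and 10.2% of all probe sets, and the F-test held 2 of 8, against 11.9%. Pairwise t-tests, the kind named in the methods, were run here on the same log2 values, not on the study's normalized ones. After Benjamini-Hochberg adjustment they called 0 of 8 in each comparison, against 0.0%, 0.0586% and 0.133% of all probe sets. Over the 7 genes, with the brighter *bw* probe set, the median log2 difference was -0.10, -0.02 and 0.01, against -0.02, -0.01 and 0.01 over all probe sets. A difference between single genotypes was also tested by an exact two-sided permutation test over the 10 ways to split 6 arrays, which cannot give a p under 0.1. All log2 values and percent differences are of the intensity plus 16, and errors after ± are the SD over 3 arrays. A p over the threshold does not show that the genotypes have the same level, so the 95% interval of the difference is given beside it.

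**Figure D1:**
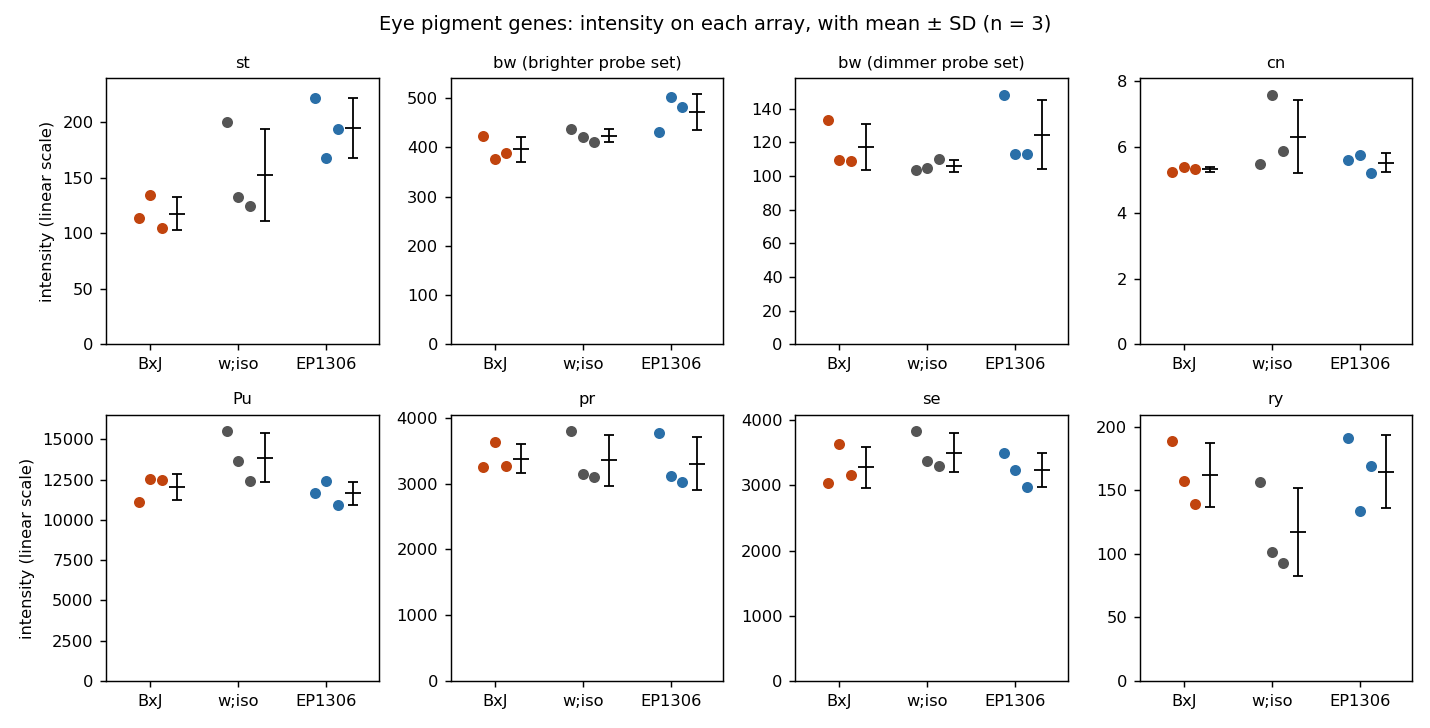
Intensity on a linear scale from 0 (y axis) of the 8 probe sets of the 7 measured eye pigment genes on each array (points), by genotype, with *w;iso* as the control and mean ± SD over 3 arrays (bars). Arrays of *EP1306* lie above those of *BxJ* for *st* and for the brighter *bw* probe set, and *cn* stays under 8 on every array.

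The transporter gene *st* had the largest difference between the mutants among the 8 probe sets. Its intensity was 113, 134 and 105 on the *BxJ* arrays, 222, 168 and 194 on the *EP1306* arrays, and 200.0, 133 and 124 on the control arrays. The *EP1306* arrays were all above the *BxJ* arrays, as were those of 11.3% of all probe sets, and the control arrays spanned both, with replicate 1 among the *EP1306* values and the other 2 among the *BxJ* values. Scarlet is the partner of White in the carriage of ommochrome precursors, so its loss removes the brown pigment. The mean log2 level was 7.05 ± 0.159 in *BxJ*, 7.37 ± 0.337 in the control and 7.71 ± 0.186 in *EP1306*.

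*st* was 57.7% higher in *EP1306* than in *BxJ*, with a 95% interval of 18.8% to 109% (log2 difference 0.66, SE 0.178). The unadjusted limma p was 0.00578 and the adjusted p 0.200, and the exact permutation p was 0.1, the smallest possible. Against the control, the log2 difference was -0.32 in *BxJ* (adjusted p = 0.467 in limma) and 0.34 in *EP1306* (adjusted p = 0.621), with overlapping arrays in both. Without control replicate 1 these 2 differences were -0.12 and 0.54, with adjusted p-values of 0.642 and 0.143, and that of *EP1306* minus *BxJ* had an adjusted p of 0.0692 in limma. *st* is in the study's own selection of altered transcripts, which was made on these same arrays, so that selection is not independent evidence of its direction.

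*bw* encodes the other partner of White, with which it carries pteridine precursors. Its brighter probe set read 423, 375 and 389 in *BxJ*, 432, 502 and 481 in *EP1306*, and 438, 421 and 412 in the control. Here too the 3 *EP1306* arrays were above the 3 *BxJ* arrays, although the lowest of the former and the highest of the latter lay close together. The level was 18.4% higher in *EP1306* than in *BxJ*, with a 95% interval of 5.65% to 32.6%, an unadjusted limma p of 0.00890 and an adjusted p of 0.251. Against the control the log2 difference was -0.096 in *BxJ* and 0.15 in *EP1306*, with adjusted p-values of 0.533 and 0.582 in limma.

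The dimmer *bw* probe set gave a different order. It read 133, 110 and 109 in *BxJ*, 148, 113 and 113 in *EP1306*, and 103, 105 and 110 in the control. All 3 *EP1306* arrays were above the control arrays, as for 4.15% of all probe sets, and replicate 1 of *EP1306* and of *BxJ* stood above the rest. The log2 difference of *EP1306* minus control was 0.20 (95% interval -0.08 to 0.47), with an adjusted p of 0.689 in limma, and 0.079 without *EP1306* replicate 1. For *EP1306* minus *BxJ* it was 0.072 (95% interval -0.20 to 0.35), with overlapping arrays and an adjusted p of 0.861. Both probe sets are of the kind that matches several transcripts of 1 gene.

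*cn* encodes kynurenine 3-monooxygenase, which makes the 3-hydroxykynurenine from which ommochromes form. Its intensity was 5.24, 5.39 and 5.34 in *BxJ*, 5.62, 5.76 and 5.21 in *EP1306*, and 5.48, 7.59 and 5.88 in the control. These values lie between percentiles 17.7 and 34.2 of their arrays, around the lower quartile of all probe sets, and may be at background, since no detection call was used. With 16 added before the log2, the differences were -0.065, -0.051 and 0.014 in the 3 comparisons, with adjusted p-values of 0.437, 0.688 and 0.891 in limma. All 3 *BxJ* arrays were below the control arrays, as were those of 27.6% of all probe sets, so this order says nothing particular about *cn*.

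*Pu* encodes GTP cyclohydrolase I, which commits GTP to the pteridine pathway and to tetrahydrobiopterin. It was bright on every array, with 11083.5, 12524.5 and 12509.2 in *BxJ*, 11660.7, 12388.5 and 10952.6 in *EP1306*, and 15496.7, 13676.4 and 12438.6 in the control. All 3 *EP1306* arrays were below the 3 control arrays, as for 8.17% of all probe sets, with the nearest pair close together, whereas *BxJ* overlapped the control. *Pu* was 15.6% lower in *EP1306* than in the control, with a 95% interval of 26.7% to 2.90% lower, an unadjusted limma p of 0.0234 and an adjusted p of 0.375. It was 13% lower in *BxJ*, with an adjusted p of 0.415 in limma. Without control replicate 1, the brightest, the log2 differences moved from -0.25 to -0.16 in *EP1306* and from -0.20 to -0.12 in *BxJ*.

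*pr* encodes 6-pyruvoyltetrahydropterin synthase, the enzyme that follows GTP cyclohydrolase. Its probe set, of a kind that can match transcripts of more than 1 gene although only *pr* is named for it, read 3250.2, 3628 and 3267 in *BxJ*, 3772, 3112 and 3026 in *EP1306*, and 3803, 3150.5 and 3108 in the control. The genotypes overlapped throughout. The log2 difference was 0.016 in *BxJ* and -0.023 in *EP1306*, and the 95% intervals ran from 14.5% lower to 19.7% higher and from 16.8% lower to 16.5% higher. For *EP1306* minus *BxJ* the interval was 17.7% lower to 15.2% higher.

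*se* encodes the PDA synthase that yields the precursor of drosopterins, a glutathione transferase of the omega class. It read 3037, 3632 and 3163 in *BxJ*, 3497, 3232 and 2969 in *EP1306*, and 3838, 3370.0 and 3297 in the control, with overlap in each pair of genotypes. The log2 difference was -0.096 in *BxJ* (95% interval 19.1% lower to 8.14% higher) and -0.11 in *EP1306* (20.1% lower to 6.75% higher). The adjusted p-values in limma were 0.603 and 0.725. Without single arrays these differences ranged from -0.17 (without *BxJ* replicate 2) to -0.029 (without control replicate 1) and from -0.17 (without *EP1306* replicate 1) to -0.047 (without control replicate 1). The interval of *EP1306* minus *BxJ* ran from 14.6% lower to 14.1% higher.

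*ry* encodes xanthine dehydrogenase, which acts on pteridines and purines. It read 189, 157 and 139 in *BxJ*, 191, 134 and 169 in *EP1306*, and 157, 101 and 92.7 in the control. Both mutants lay mostly above the control, but replicate 1 of the control fell among the mutant values. The level was 35.7% higher in *BxJ* (95% interval 1.30% lower to 86.6% higher, unadjusted p = 0.0581, adjusted p = 0.421 in limma) and 37.5% higher in *EP1306* (95% interval 0.0237% to 89.1%, unadjusted p = 0.0499, adjusted p = 0.509 in limma). The exact permutation p was 0.2 in both. The mutants shared the same control arrays, and their direct difference was 0.019 on the log2 scale (95% interval -0.44 to 0.48).

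The *ry* differences varied with the arrays and covariates in the fit. Without control replicate 1 they were 0.64 for *BxJ* and 0.66 for *EP1306*, with an adjusted p of 0.135 for each in limma. The mean log2 intensity of the 9 hybridization spike-in probe sets was 9.49 to 10.73 on the control arrays and 8.38 to 9.40 on the mutant arrays, with no overlap. With that mean as a covariate the *ry* differences were -0.14 and -0.071, with the sign reversed. Since the spike-in mean itself separated control from mutant arrays, this fit can hardly tell it apart from genotype, and the reversal decides nothing. Among markers of the fat body, a source of xanthine dehydrogenase, 0 of 5 measured genes were called in any comparison by limma. In each comparison 1 had an unadjusted p under 0.05. Their summed intensity was 16521 to 18057 in *BxJ*, 14330 to 17032 in *EP1306* and 12692 to 17758 in the control. Most of that sum was *apolpp*, at 10675 to 14733 over the 9 arrays. *Lsp2* read 1519, 1492 and 986 in *BxJ*, 924, 660 and 701 in *EP1306*, and 1045, 553 and 291 in the control. Its log2 difference of *BxJ* minus control, 1.21, was the largest of the 5. Against the control 4 of 5 differences were positive in *BxJ* and 3 of 5 in *EP1306*, and 6167 and 6798 of 18769 over all probe sets. Of the Malpighian tubule markers 2 of 4 were measured, with none called by limma and 0, 1 and 0 at an unadjusted p under 0.05, and one of them, *ZnT35C*, was at 8.96 to 11.7 on every array. The part of these measures in the *ry* difference was not tested.

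**Figure D2:**
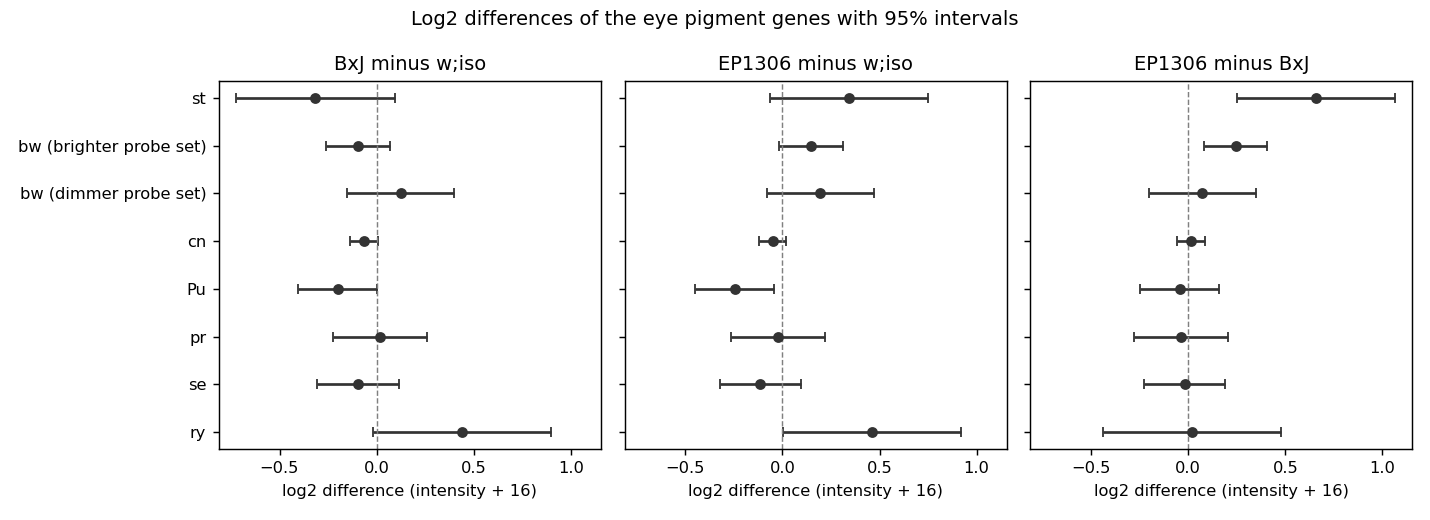
Log2 differences of the intensity plus 16 (x axis) of the 8 probe sets in the 3 comparisons, with 95% intervals from limma (bars). The intervals of *st* and of the brighter *bw* probe set in *EP1306* minus *BxJ* and of *ry* in *EP1306* minus control lie above 0, that of *ry* barely, and that of *Pu* in *EP1306* minus control lies below 0, all unadjusted, and no adjusted p was under 0.05.

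On most of the 8 probe sets the same array was the brightest of its genotype. Control replicate 1 was the brightest of its genotype on 6 of the 8 probe sets, the exceptions being *cn* and the dimmer *bw* probe set. *EP1306* replicate 1 was the brightest on 5 of 8, and *BxJ* replicate 2 on 5 of 8. The matching shares over all probe sets were not counted, so this order cannot be called particular to these genes. On 18S rRNA, over 3 probe sets, control replicate 1 had a mean log2 intensity of 12.72, the highest of the 9 arrays. Control replicates 2 and 3 had 10.85 and 10.53, the *BxJ* arrays 7.83 to 9.43 and the *EP1306* arrays 9.23 to 10.01. Every control array was thus above every mutant array, so this signal cannot be told apart from genotype. The part of the rRNA signal in the pigment gene levels was not tested. The array medians of all probe sets differed by only 0.0818 on the log2 scale.

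Markers of eye cells were examined beside the pigment genes, since in RNA of whole heads fewer cells of a type and less RNA per cell cannot be told apart. Of 22 photoreceptor markers 13 were measured, among them *Arr2*, an arrestin, at 23937 to 31420, while *ninaE*, the other opsins, *norpA* and *ninaC* were not analysed here. All 13 had a negative log2 difference in *BxJ* minus control, as had 12602 of all 18769 probe sets, with a median of -0.19, none called by limma and 5 at an unadjusted p under 0.05, and their summed intensity was 102076 to 113414 in *BxJ*, 113613 to 117854 in *EP1306* and 112836 to 123899 in the control. In *EP1306* minus *BxJ* 12 of 13 were positive, against 11563 of 18769 over all probe sets, and 1 was called. It was *rdgB*, a phosphatidylinositol transfer protein needed for phototransduction, at 0.50 (adjusted p = 0.0334 in limma), which is also in the study's selection. Without single arrays the *rdgB* difference stayed between 0.44 and 0.57 and was called in 3 of 9 fits, and the call was also lost under quantile normalization (adjusted p = 0.0638), with no intensity trend (0.0526) and in fits of only the genotypes compared (0.0740). A second, dimmer *rdgB* probe set differed by -0.05 (adjusted p = 0.869). The 5 markers of retinal pigment cells and chromophore supply summed to 24908 to 26040 in *BxJ*, below the 27349 to 28469 of the control. None was called by limma, with 1 at an unadjusted p under 0.05 in each comparison. Most of that sum came from the retinol dehydrogenase gene *Pdh*, at 22594 to 23781 in *BxJ* and 24977 to 25659 in the control. For 27.6% of all probe sets the *BxJ* arrays likewise lay wholly below the control. In *BxJ* minus control 4 of the 5 differences were negative, and that of *ninaD* was 0.13.

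Expressed relative to the photoreceptor markers of the same array, the pigment genes still gave 0 of 8 calls in each comparison, where 1.84%, 1.23% and 3.02% of all probe sets were called. The *st* difference of *EP1306* minus *BxJ* was 0.52 on that scale and the brighter *bw* probe set 0.10, with adjusted p-values of 0.158 and 0.498 in limma. The *ry* difference of *BxJ* minus control was 0.62 (adjusted p = 0.114). Markers of tissues outside the head also varied, with 12 male accessory gland genes summing to 952 to 5298 in *BxJ*, 134 to 1298 in *EP1306* and 130 to 1126 in the control, and 10 testis genes to 313 to 1526, 93.8 to 269.8 and 95.4 to 501. No member was called without the array of each genotype richest in accessory gland transcripts.

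Beyond the named pigment genes, the rest of the pathways was described from lists of related genes, each gene by its brightest probe set. The other ABC transporters of the White subfamily were all measured, 12 of 12. In *EP1306* minus control 1 of them fell, none rose, and 10 of 12 log2 differences were negative, with a median of -0.10. None was called by limma in the other 2 comparisons, with 1 and 2 at an unadjusted p under 0.05, where the medians were 0.06 for *BxJ* minus control and -0.14 for *EP1306* minus *BxJ*. Over all probe sets 11971 of 18769 differences were negative in *EP1306* minus control. In *EP1306* minus *BxJ* 10 of 12 were also negative, against 7206 of 18769 over all probe sets, whose median was 0.0075. For *BxJ* minus control it was 5 of 12, against 12602 of 18769.

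The transporter that fell was *Atet*, on 2L, an ABC transporter of the same subfamily as White. It read 1215, 1147 and 1201 in *BxJ*, 1014, 1061 and 1073 in *EP1306*, and 1297, 1272 and 1242 in the control, so that *EP1306* was lowest and did not overlap either of the others. Of all probe sets, 8.17% were likewise wholly lower in *EP1306* than in the control, and the share against *BxJ* is not reported here. The log2 difference against the control was -0.27 (95% interval -0.37 to -0.17, adjusted p = 0.0285 in limma), or 17.2% lower. The call was lost without any single array, with adjusted p-values of 0.0547 to 0.0947 over the 9 fits, and under median centring the adjusted p was 0.073. The probe set is of a kind that can match more than 1 gene. The next 3 transporters by the F-test, *CG32091*, *CG17646* and *CG31689*, had differences of -0.34, -0.092 and 0.25 in *EP1306* minus control, with adjusted p-values of 0.464, 0.757 and 0.516 in limma.

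Of 6 other ommochrome genes 5 were measured and none was called by limma in any comparison, with 1, 2 and 1 at an unadjusted p under 0.05. All 5 differences were negative in *EP1306* minus control, as were 11971 of 18769 over all probe sets, with a median of -0.16. *kar* (*karmoisin*), a member of the monocarboxylate transporter family, read 933, 905 and 987 in *BxJ*, 801, 898 and 948 in *EP1306*, and 1194, 1130.0 and 1089 in the control. Both mutants lay wholly below the control, as did the *BxJ* arrays for 27.6% and the *EP1306* arrays for 8.17% of all probe sets. The log2 differences were -0.27 in *BxJ* (adjusted p = 0.235 in limma) and -0.36 in *EP1306* (adjusted p = 0.0616), the latter with a call under quantile normalization (adjusted p = 0.0345) and with the filter on low values (0.0215). These settings called 1.29% and 5.36% of all probe sets, against 1.14% without them. Of the 9 fits without 1 array, 0 called it, with adjusted p-values of 0.0665 to 0.165 in limma. *Rab32*, known as *lightoid*, which serves the biogenesis of pigment granules, had a log2 difference of -0.16 in *EP1306* (adjusted p = 0.0799 in limma) and -0.077 in *BxJ* (adjusted p = 0.415). *KFase*, the kynurenine formamidase that acts between *v* and *cn*, and *cd* (*cardinal*), a peroxidase-like gene, differed by -0.19 and -0.13 in *EP1306* minus control, with overlapping arrays.

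Of 18 other genes of pteridine and molybdenum cofactor metabolism 15 were measured. In *EP1306* 1 fell against both the control and *BxJ*, none rose, and in *BxJ* minus control none was called by limma, with 1 at an unadjusted p under 0.05. The medians were 0.016, -0.0043 and -0.023 in the 3 comparisons, close to those of all probe sets. The gene that fell was *AOX1*, on 3R, an aldehyde oxidase that belongs with the xanthine dehydrogenase of *ry* to the molybdoflavoenzymes.

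*AOX1* read 492, 424 and 439 in *BxJ*, 186, 167 and 199 in *EP1306*, and 644, 426 and 350.2 in the control. The *EP1306* arrays were all below the others, and *BxJ* lay within the range of the control. Arrays of *EP1306* wholly below the control were found for 8.17% of all probe sets, and that share against *BxJ* is not reported here. The log2 difference was -1.25 against the control (SE 0.192, 95% interval -1.69 to -0.81, adjusted p = 0.0235 in limma) and -1.23 against *BxJ* (adjusted p = 0.0250), or 58.0% and 57.3% lower. For *BxJ* minus control it was -0.024 (95% interval -0.46 to 0.42). Over the fits that left out 1 array the differences were -1.44 to -1.01 and -1.28 to -1.16, but the call was lost in 5 of 9 and in 7 of 9. Against the control the adjusted p rose to 0.0502 without *BxJ* replicate 2, to 0.0802, 0.0962 and 0.0771 without *EP1306* replicates 1, 2 and 3, and to 0.0738 without control replicate 2. Against *BxJ* it was under 0.05 only without control replicate 1 (0.0030) or replicate 3 (0.0147). Without the 3 arrays richest in accessory gland transcripts the differences were -1.31 (adjusted p = 0.244) and -1.25 (adjusted p = 0.171).

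A second aldehyde oxidase gene, *AOX3*, also on 3R, differed the other way, with a call under some settings only. It read 391, 336 and 373 in *BxJ*, 458, 487 and 494 in *EP1306*, and 363, 314 and 258 in the control. The log2 difference of *EP1306* minus control was 0.61 (95% interval 0.35 to 0.87), with an adjusted p of 0.0554 in limma. It was 0.0218 without control replicate 1, 0.0273 under quantile normalization, 0.0484 under median centring, 0.0116 with the filter on low values and 0.0161 relative to photoreceptor markers. The filter called 5.36% of all probe sets. Of the 9 fits without 1 array, only 1 called *AOX3* in that comparison, and the adjusted p reached 0.171 in limma. *AOX1* and *AOX3* are both in the study's selection, which was made on these arrays. *GstO2*, a paralog of *se* in the omega class, read 1091, 968 and 1020 in *BxJ*, 1314, 1141 and 1271 in *EP1306*, and 1050.1, 852 and 906 in the control, a log2 difference of 0.40 in *EP1306* minus control (adjusted p = 0.0962 in limma). *Sptr*, sepiapterin reductase, which completes tetrahydrobiopterin, read 199, 199 and 200 in *BxJ*, 195, 172 and 200 in *EP1306*, and 240.1, 221 and 229 in the control. Its differences were -0.19 in *BxJ* and -0.27 in *EP1306*, with adjusted p-values of 0.386 and 0.183 in limma. Neither mutant overlapped the control, and 27.6% of all probe sets were likewise wholly lower in *BxJ* and 8.17% in *EP1306*.

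**Figure D3:**
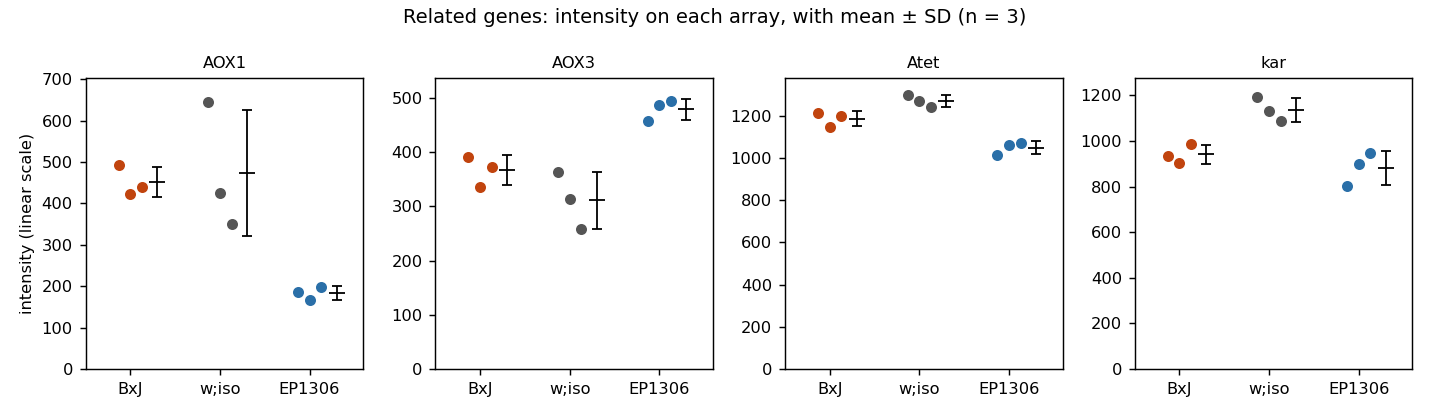
Intensity on a linear scale from 0 (y axis) of *AOX1*, *AOX3*, *Atet* and *kar* on each array (points), by genotype, with mean ± SD over 3 arrays (bars). *AOX1* was 167 to 199 in *EP1306* and 350.2 or more on every other array.

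Genes that build and fill the pigment granule gave no call. Of 23 trafficking genes, which include subunits of the AP-3, HOPS and BLOC complexes known from eye colour mutants, 19 were measured and 0 were called by limma in any comparison, with 1, 0 and 3 at an unadjusted p under 0.05. The medians were -0.06, -0.02 and 0.05. The highest ranked was *ca* (*claret*), a guanine nucleotide exchange factor for *Rab32*, at 416, 354 and 365 in *BxJ*, 255, 295 and 350.1 in *EP1306*, and 331, 264 and 318 in the control, a log2 difference of 0.30 in *BxJ* minus control (adjusted p = 0.406 in limma). *cm* (*carmine*), a subunit of AP-3, differed by -0.34 in the same comparison (adjusted p = 0.419), and *Vps11* and *Vps8*, which encode tethering subunits, by -0.11 and -0.21.

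Genes that hydroxylate aromatic amino acids, or that make, store or act on monoamines, were measured for 7 of 9. By limma 0 were called in any comparison, with 1 at an unadjusted p under 0.05 in each. Of the hydroxylases named here that need tetrahydrobiopterin, only *ple* was measured, since *Hn* and *Trhn* are not in the platform's table. The medians were -0.09, -0.06 and 0.02. *t* (*tan*), a hydrolase that frees histamine and dopamine from their β-alanyl conjugates, had the smallest p, at -0.24 in *BxJ* minus control (adjusted p = 0.181 in limma). *Ddc*, *Vmat* and *ple*, the dopa decarboxylase, the vesicular monoamine transporter and tyrosine hydroxylase, differed by -0.22, -0.06 and -0.02 in *EP1306* minus control. The other 3 probe sets of *Vmat*, which are dimmer, gave -0.0044 to -0.27.

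**Figure D4:**
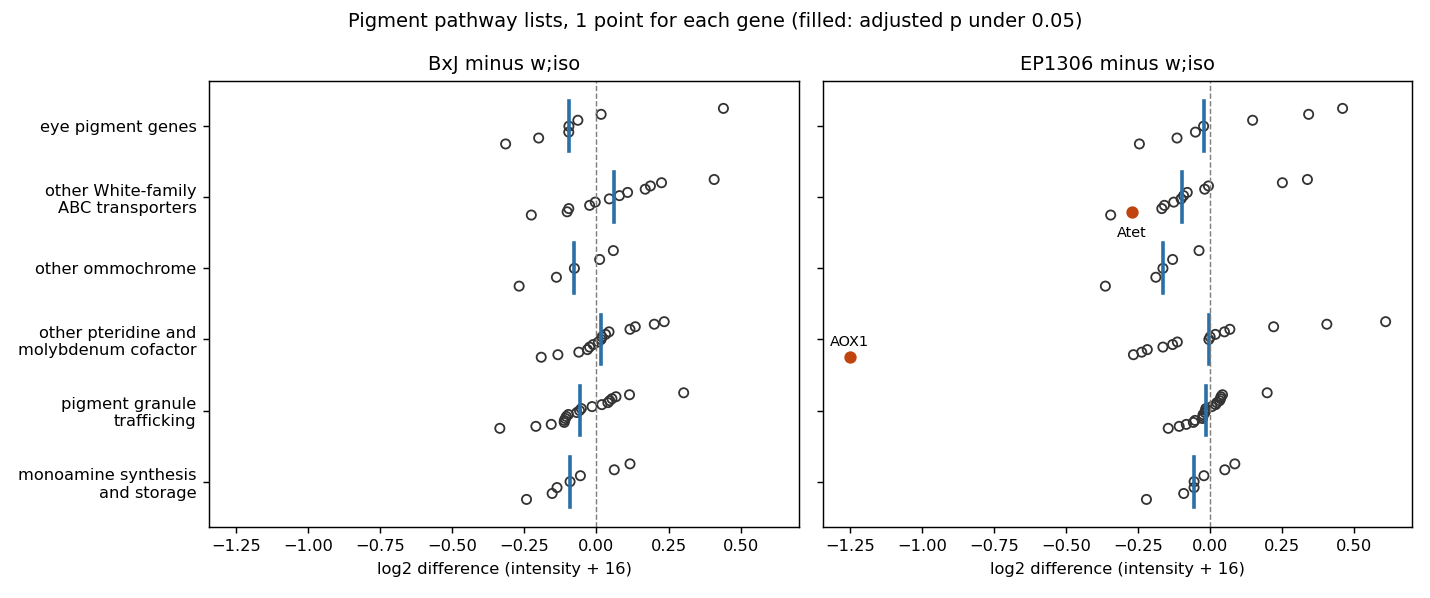
Log2 differences of the intensity plus 16 (x axis) in *BxJ* minus control and *EP1306* minus control for the eye pigment genes and 5 related lists, with 1 point for each gene, filled where the adjusted p was under 0.05, and the median as a vertical line. The filled points are *Atet* at -0.27 and *AOX1* at -1.25 in *EP1306* minus control, and the medians of the eye pigment genes are -0.10 and -0.02.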

How the data were processed

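The deposited intensities were made by the authors with MAS5, per the labels' processing notes, which give no version. The scale is linear and 18952 probe sets have a value on each array. No other normalization is stated in those notes, and detection calls were not used. After the 183 array controls had been removed, log2 of the intensity plus 16 was taken, with no scaling, since the array medians lay between 4.997 and 5.079. Arrays of 1 genotype correlated at 0.994 to 0.998 across probe sets. Their number limits the precision.

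All 9 arrays entered a linear model of genotype in limma 3.58.1 under R 4.3.3, with variances moderated by eBayes along a trend in intensity (prior degrees of freedom 2.24), and p-values were adjusted by the Benjamini-Hochberg method over 18769 probe sets, with a threshold of 0.05. The methods used pairwise t-tests and an ANOVA, after normalization and with the averaged control subtracted. These tests were run as alternatives on the log2 values used here, without those steps. The fit was tested on simulated data. Figures and tables of values were made in Python 3.11.15.

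Genes were named from the platform annotation, where 13647 probe sets name 1 gene, 402 several and 4720 none, and chromosome arms came from a RefSeq gene table. Probe sets that name several genes were given no gene. The members and lists were chosen with earlier results of these data known. Named from each list were up to 4 genes with the smallest p in the F-test, and all members. A further rule, the probe sets most correlated with *w*, could not be applied. Alternatives were the number added before the log2, median centring or quantile normalization, removal of low values, no intensity trend, a replicate block, fits of only the genotypes compared and leaving out each array. Fits without the arrays richest in accessory gland transcripts, with a covariate for the hybridization spike-ins and relative to photoreceptor markers were added after seeing the data. The study's own fold changes and p-values were not used. Neuron and glia markers are given with the other observations.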

Additional observations from a re-analysis of the deposited data

How the results depend on the processing

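The count of members called was 0 in each comparison under every setting run with limma, including each of the 9 fits without 1 array, and under the methods' tests after Benjamini-Hochberg adjustment. The methods' unadjusted tests passed 2 members in *EP1306* minus *BxJ*, *st* at p = 0.00965 and the brighter *bw* probe set at p = 0.0374 (exact permutation p = 0.1 for each), and 2 in the F-test, where 8.84% and 10.1% of all probe sets passed. The lowest adjusted p of a member in limma was 0.0564, for *st* in *EP1306* minus *BxJ* with the filter on low values, which removed *cn*. Of 525 alternative values of the 24 member differences, 491 kept their direction and side of the threshold and 32 changed sign, 15 of these without single arrays, none with a size over 0.178.

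The changes of sign were as follows, and their cause was not tested. *pr* was 0.029 in *EP1306* minus control with quantile normalization, and with median centring *pr* was -0.0061 in *BxJ* minus control and *se* 0.018 in *EP1306* minus *BxJ*. Without the 3 arrays richest in accessory gland transcripts *pr* was -0.0018 in *BxJ* minus control, and the dimmer *bw* probe set and *ry* were -0.088 and -0.18 in *EP1306* minus *BxJ*. With the spike-in covariate *pr* and *ry* were -0.073 and -0.14 in *BxJ* minus control, and *cn* and *ry* 0.0040 and -0.071 in *EP1306* minus control. Relative to photoreceptor markers the brighter *bw* probe set, *cn* and *se* were 0.086, 0.12 and 0.085 in *BxJ* minus control, *pr* was 0.019 in *EP1306* minus control, and the dimmer *bw* probe set, *cn* and *ry* were -0.068, -0.13 and -0.12 in *EP1306* minus *BxJ*. Without single arrays *pr* ranged from -0.035 to 0.11, -0.12 to 0.071 and -0.14 to 0.021 in *BxJ* minus control, *EP1306* minus control and *EP1306* minus *BxJ*, and in the last *se* ranged from -0.077 to 0.057, *ry* from -0.085 to 0.15 and the dimmer *bw* probe set from -0.044 to 0.16.

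With the replicate number as a block, 0 members were called, *st* in *EP1306* minus *BxJ* had an adjusted p of 0.167, and the counts over all probe sets were 70, 256, 228 and 308 in the 3 comparisons and the F-test, against 54, 214, 230 and 279 without it. *Atet* lost its call, at an adjusted p of 0.0556. Residuals of same-numbered arrays correlated at -0.376 to 0.289 and 0 of 9 arrays correlated best with their own number in both other genotypes, and no label pairs them. Counts over all probe sets were 15, 88 and 153 in fits of only the genotypes compared, 136, 423, 331 and 491 of 7887 with the filter on low values, 5, 36, 210 and 145 with the spike-in covariate, 48, 35, 130 and 121 without the accessory-gland-rich arrays, 346, 230, 566 and 674 relative to photoreceptor markers, 0, 11, 25 and 98 by the methods' tests after adjustment, and 21 to 127, 103 to 247, 113 to 231 and 154 to 326 without single arrays. In fits of only the genotypes compared *AOX1* and *Atet* had adjusted p-values of 0.098 and 0.123 in *EP1306* minus control. With every probe set counted, the photoreceptor list had 1 call in *EP1306* minus control and 2 in *EP1306* minus *BxJ*, and no other list's count of calls changed. The call added in each was that of the dimmer *Galphaq* probe set.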

Other observations

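Markers of other head cells were counted by the same test. Of 11 neuron markers 10 were measured, and 0 were called by limma in the 3 pairwise comparisons, with 6, 2 and 5 at an unadjusted p under 0.05 in *BxJ* minus control, *EP1306* minus control and *EP1306* minus *BxJ*. Their median log2 difference was -0.26 in *BxJ* minus control, with 9 of 10 negative, against 12602 of 18769 over all probe sets. In that comparison *elav* had the lowest difference, -0.81 (adjusted p = 0.272 in limma), and *VGlut* the highest, 0.34. *fne*, an RNA-binding protein of neurons, passed the F-test over the 3 genotypes (adjusted p = 0.0456 in limma), as did 1.49% of all probe sets. It read 677, 550.5 and 729 in *BxJ*, 1008, 813 and 948 in *EP1306*, and 1005, 1146 and 1124 in the control, a log2 difference of -0.74 in *BxJ* minus control (SE 0.117, adjusted p = 0.0632 in limma). Of 8 glia markers 7 were measured, with 0 called by limma in the pairwise comparisons and 1, 3 and 2 at an unadjusted p under 0.05, and medians of -0.07, -0.10 and -0.08. *nrv2*, a sodium pump subunit of glia, also passed that F-test (adjusted p = 0.0421 in limma), at -0.24 in *BxJ* minus control (adjusted p = 0.0631 in limma). In that comparison 4 of the 7 glia differences were negative and 3 positive.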
